A study of Mus musculus with 4 samples.

Results

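The genes described here are 10 genes of the DNA damage checkpoint and of apoptosis in the oocyte: Trp63, Trp53, Chek2, Bbc3, Pmaip1, Bax, Bcl2, Bcl2l1, Bcl2l10 and Mcl1. They were chosen by symbol, for their part in the survival of the oocyte reserve, and all 10 were found among the 25587 genes with deposited values. RNA-Seq was performed on total RNA, depleted of ribosomal RNA, from pooled oocytes of C57BL/6Babr mice, with 1 library per stage of follicular growth. Non-growing oocytes (NGOs) came from mice at 5 days post partum (dpp) and measured 10 to 40 μm, growing oocytes came from mice at 8 to 14 dpp (GO1, 25 to 70 μm) and at 15 dpp (GO2, 50 to 70 μm), and fully grown oocytes (FGOs) came from mice at 20 dpp and measured over 70 μm. All the mice were wild-type, and the labels name no treatment. Libraries of NGOs and FGOs were prepared by a dUTP protocol, those of GO1 and GO2 by the ScriptSeq v2 kit, so stage and protocol cannot be told apart when a library of either pair is set beside a library of the other. The deposited values are RPKM (reads per kilobase of exon, relative to the library total), from which counts of reads were recovered.

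In primordial and growing follicles, the oocyte is arrested in meiotic prophase and carries a quality control of its own. CHEK2, a kinase activated by ATM when DNA is broken, phosphorylates TP63 and p53 (Trp53). The oocyte form of TP63 (TAp63) then activates Bbc3 and Pmaip1, which encode the BH3-only proteins PUMA and NOXA. BH3-only proteins free or activate BAX, which opens the outer mitochondrial membrane, and BCL-2, BCL-XL (Bcl2l1), MCL-1 and their relatives hold BAX back. BCL2L10 (also called Diva or Boo) is a BCL-2 relative known for its expression in the ovary. Both pro-survival and pro-death activities have been described for it, and it is placed here with the anti-apoptotic proteins by its family.

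Promoter sequences are shown for 3 genes whose level fell from NGOs to FGOs, together with that of Bcl2l1, whose level did not, because these genes stand at the sensing (Chek2), executing (Bax) and guarding (Bcl2, Bcl2l1) steps. RefSeq promoters (GRCm38.p6) had an entry for 7 of the 10 genes, with 11 entries, and none for Trp63, Bcl2l10 and Pmaip1. Each sequence runs from 250 bases before to 50 bases after the annotated start. Capitals mark matches, on either strand, to any of 6 motifs. These are TAATTG, the core bound by the oocyte factor NOBOX, the E-box with the letters CACGTG, a box for the TATA-binding protein with the letters TATAAA, the box named after its letters CCAAT, the GC box with the letters GGGCGG, and the p53 response element decamer. The sequences are those of Chek2 (chr5:110839733-110840032, plus strand), Bax (chr7:45466849-45467148, minus strand), Bcl2 (chr1:106714241-106714540, minus strand) and Bcl2l1 (chr2:152831679-152831978, minus strand) and use the RefSeq start nearest to the listed 5′ end of each gene.
Chek2: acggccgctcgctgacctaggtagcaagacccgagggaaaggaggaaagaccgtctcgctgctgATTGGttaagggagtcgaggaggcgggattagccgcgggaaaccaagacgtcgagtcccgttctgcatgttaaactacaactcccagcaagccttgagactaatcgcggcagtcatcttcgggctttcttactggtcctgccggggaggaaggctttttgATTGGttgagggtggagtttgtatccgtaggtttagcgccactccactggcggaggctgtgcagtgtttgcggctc
Bax: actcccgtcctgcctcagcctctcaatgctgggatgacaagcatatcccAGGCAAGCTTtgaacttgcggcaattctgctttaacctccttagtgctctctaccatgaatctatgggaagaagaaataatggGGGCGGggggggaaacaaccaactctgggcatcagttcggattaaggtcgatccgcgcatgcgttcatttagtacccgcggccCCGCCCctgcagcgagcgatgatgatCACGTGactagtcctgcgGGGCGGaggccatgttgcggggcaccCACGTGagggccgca
Bcl2: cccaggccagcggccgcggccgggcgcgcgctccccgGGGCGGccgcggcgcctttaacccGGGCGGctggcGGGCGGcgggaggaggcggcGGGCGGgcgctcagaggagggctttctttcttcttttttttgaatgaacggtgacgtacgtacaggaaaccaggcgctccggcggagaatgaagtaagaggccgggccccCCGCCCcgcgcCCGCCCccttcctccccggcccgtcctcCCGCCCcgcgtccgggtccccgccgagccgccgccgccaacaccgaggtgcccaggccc
Bcl2l1: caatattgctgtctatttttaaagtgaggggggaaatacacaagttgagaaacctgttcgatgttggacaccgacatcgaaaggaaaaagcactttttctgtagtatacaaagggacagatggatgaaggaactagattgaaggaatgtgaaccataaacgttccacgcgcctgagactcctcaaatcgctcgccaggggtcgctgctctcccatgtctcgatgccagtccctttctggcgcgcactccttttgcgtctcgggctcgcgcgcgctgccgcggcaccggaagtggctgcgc

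The Chek2 promoter held 2 CCAAT boxes, a motif found in 37.4 % of all 32817 RefSeq promoters of this length. The Bax promoter held 2 E-boxes (7.15 % of all promoters have at least 1), 3 GC boxes (35.6 %) and 1 p53 decamer (8.36 %). The Bcl2 promoter had a GC content of 76.0 % and held 7 GC boxes and none of the other motifs. The 3 entries of Bcl2l1 held none of the 6 motifs. TAATTG (8.0 % of all promoters) was in none of the 11 entries, and TATAAA (13.6 %) was in 1 of them, that of Trp53. These are matches of letters at annotated starts, and the gene-level values do not tell which start the oocyte used.

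Recovered counts on genes ranged from 62787295 in NGOs to 135396742 in GO2. With 1 library per stage there is no replicate check of any difference and no test was possible. The intervals given are 95 % intervals for counting error only (exact Poisson for levels), and they are too narrow, since the recovered counts on genes outnumber the uniquely mapped reads given for each library by the study. Changes are given within a protocol (FGOs against NGOs, GO2 against GO1) as log2 ratios of counts after scaling of the libraries by a trimmed mean, and "rose" and "fell" are used of genes that had 20 counts or more in the pair and changed at least 2-fold. From NGOs to FGOs, 17.7 % of the 15267 genes compared rose and 16.8 % fell by this rule, and 8.57 % rose and 5.54 % fell at least 4-fold. From GO1 to GO2, 6.87 % of the 15745 genes compared rose and 2.85 % fell, and 1.51 % rose and 0.254 % fell at least 4-fold. RPKM is relative to all reads of a library, so it does not give the amount of RNA per oocyte, and in pooled cells a smaller number of expressing cells and less RNA per cell cannot be told apart.

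All 13 oocyte markers had at least 3 counts in every library, with a summed level of 4590 RPKM (FGOs) to 7470 RPKM (NGOs). From NGOs to FGOs, 5 of these 13 fell and 1 rose, beside 16.8 % and 17.7 % of all genes compared. Their median log2 change was -0.75. The 12 granulosa cell markers summed to 6.90 RPKM in NGOs, 12.2 RPKM in GO1, 16.6 RPKM in GO2 and 20.0 RPKM in FGOs, and none was at 0. Most of this came from Nr5a2 and Cyp19a1, at 3.62 and 0.518 RPKM in NGOs and 8.65 and 6.08 RPKM in FGOs. The median of the 12 was 0.245 RPKM in NGOs, 0.0889 RPKM in GO1, 0.103 RPKM in GO2 and 0.357 RPKM in FGOs. The 9 markers of stroma and theca summed to 5.88 RPKM in NGOs and to 0.357 to 0.471 RPKM in the other libraries. At least 3 counts were found for 8 of these 9 markers in both NGOs and GO1, 7 in GO2 and 6 in FGOs. Lum was at 0 in GO1, GO2 and FGOs, Acta2 in GO2 and FGOs, and Cyp17a1 in FGOs. The collagen gene Col1a1 was at 2.24 RPKM in NGOs and 0.0191 RPKM in FGOs. Of the 9 blood and endothelium markers 6 are listed, and they summed to 2.75 to 9.82 RPKM, most of it from the endothelial gene Pecam1. At least 3 counts were found for all 6 in NGOs and for 3 of them in each of GO1, GO2 and FGOs. The haemoglobin gene Hba-a1 had 81 counts in NGOs and 0 in FGOs. Of the 7 stroma and theca markers compared from NGOs to FGOs, 5 fell, as did the 6 genes described below, while Pdgfra (log2 change -0.27) and Star (0.34) stayed under 2-fold. Of the 4 blood and endothelium markers compared, Hba-a1 fell, Pecam1 and Kdr rose (2.53 and 1.93) and Ptprc stayed under 2-fold (-0.17). The endothelial genes Cdh5 (18 counts in NGOs, 0 in FGOs) and Cd34 (5 and 0) had fewer than 20 counts in the pair. The part of these cells in the changes was not tested.

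From NGOs to FGOs, 6 of the 10 genes fell, 1 rose and 3 changed less than 2-fold. Pmaip1, Bbc3, Bcl2, Chek2, Bax and Trp63 fell, Bcl2l10 rose, and Bcl2l1, Trp53 and Mcl1 stayed under the threshold. The median log2 change of the 10 was -1.35, beside -0.01 over all genes compared, of which 16.8 % fell and 17.7 % rose. At 4-fold, Pmaip1, Bbc3 and Bcl2 passed the threshold, and of these Pmaip1 alone passed it on log2(RPKM + 0.1), where low values change less. From GO1 to GO2, 9 of the genes had enough counts, of which Pmaip1 and Bcl2 fell, none rose, and none passed 4-fold. The median there was -0.16, beside 0.02 over all genes compared, of which 2.85 % fell and 6.87 % rose. The pairs have no library in common and cover different intervals of growth.

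**Figure D1:**
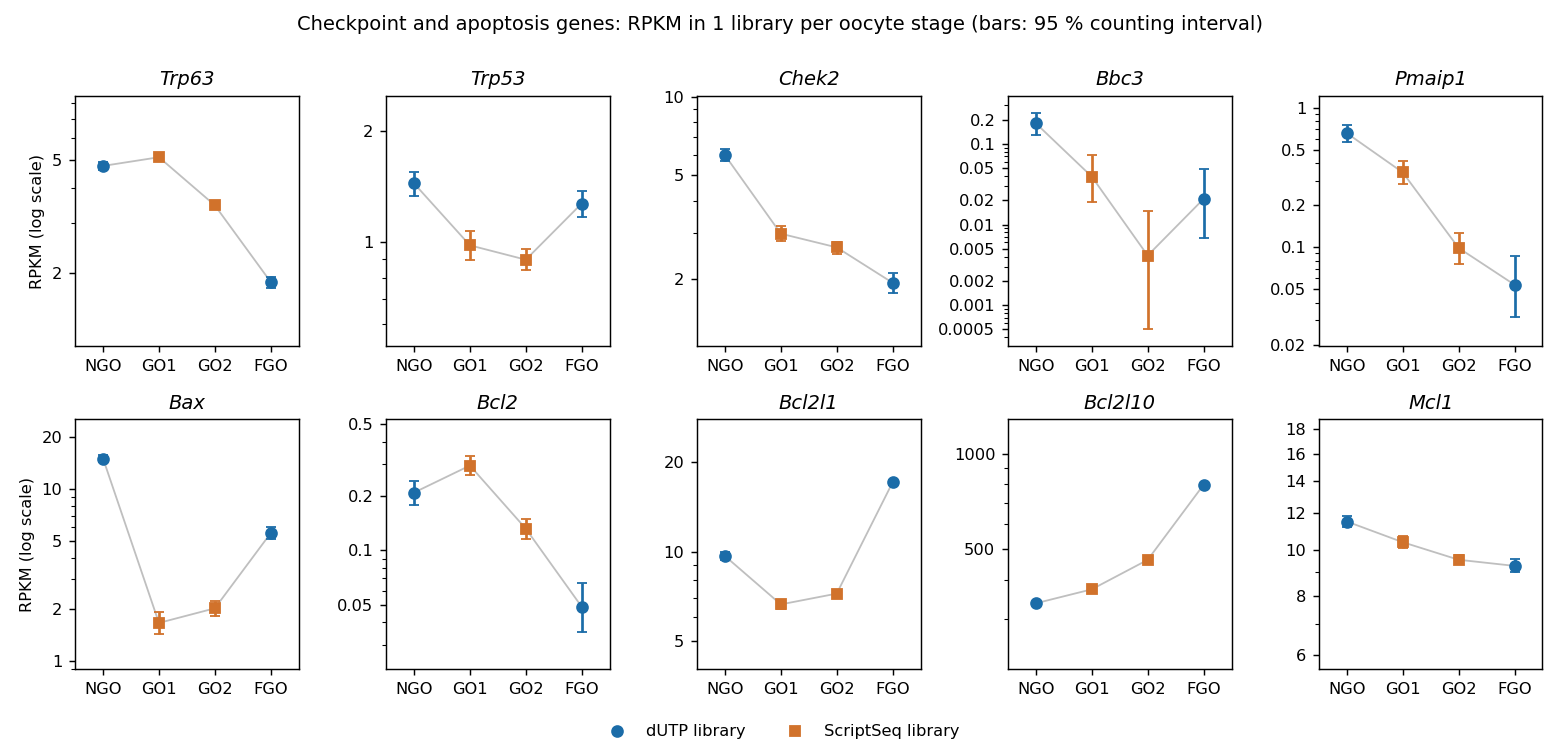
Level of each gene in RPKM (log axis, with its own range in each panel) in the NGO, GO1, GO2 and FGO libraries, 1 library per stage; bars are 95 % counting intervals, circles are dUTP and squares ScriptSeq libraries. Bcl2l10 went from 337 to 797 RPKM, Trp63 from 4.78 to 1.86 RPKM, and Bax was 15 RPKM in NGOs and 5.54 RPKM in FGOs with 1.67 and 2.03 RPKM in the ScriptSeq libraries.

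Trp63 (chr16:25683763-25892102, plus strand, GRCm38), the p53 relative that acts as the death switch of the oocyte with broken DNA, was at 4.78 RPKM in NGOs (95 % counting interval 4.64 to 4.92), 5.13 RPKM in GO1 (5.00 to 5.27), 3.47 RPKM in GO2 (3.39 to 3.55) and 1.86 RPKM in FGOs (1.77 to 1.94). No intervals overlapped, and the fully grown oocytes were lowest. Between NGOs and FGOs the log2 change was -1.31 (-1.39 to -1.23), a level 2.48-fold lower, and that from GO1 to GO2 was -0.60 (-0.65 to -0.55). These values are for the whole gene, over 8391 bases of exon, and do not separate the TA form of the oocyte from the ΔN form of epithelia.

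Trp53 (chr11:69580359-69591873, plus strand), the tumour suppressor p53, which also acts downstream of CHEK2, was at 1.44 RPKM in NGOs (1.33 to 1.55), 0.979 RPKM in GO1 (0.895 to 1.07), 0.895 RPKM in GO2 (0.837 to 0.956) and 1.27 RPKM in FGOs (1.17 to 1.37). Within each protocol the intervals of both libraries overlapped. The log2 change was -0.13 (-0.29 to 0.03) from NGOs to FGOs and -0.16 between GO1 and GO2. The level of Trp63 per length was 3.32 times that of Trp53 in NGOs, 5.24 times in GO1, 3.87 times in GO2 and 1.47 times in FGOs.

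Chek2 (chr5:110840017-110874133, plus strand) was at 5.97 RPKM in NGOs (5.67 to 6.28), 2.99 RPKM in GO1 (2.80 to 3.20), 2.65 RPKM in GO2 (2.51 to 2.79) and 1.94 RPKM in FGOs (1.78 to 2.11). The kinase gene was thus highest in non-growing and lowest in fully grown oocytes. Its log2 change was -1.57 (-1.72 to -1.42) from NGOs to FGOs and -0.21 (-0.33 to -0.09) between GO1 and GO2, the latter under the 2-fold threshold.

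Among 10748 genes with at least 100 counts in each library, those whose profile over the 4 libraries was nearest to that of Trp63 (distance between centred log2 RPKM values) were Tmc3 at 0.07, Rufy2 at 0.08 and B230120H23Rik at 0.09. Tmc3, a transmembrane channel-like gene, was at 1.38 RPKM in NGOs, 1.46 RPKM in GO1, 0.973 RPKM in GO2 and 0.502 RPKM in FGOs. With 4 libraries such a likeness describes the order and spacing of 4 values.

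Bbc3 and Pmaip1, the BH3-only genes that TP63 and p53 switch on, were, together with Bcl2, the lowest of the 10 genes in each library. Bbc3 (chr7:16309616-16318205, plus strand) had 40 counts in NGOs, 10 counts in GO1, 2 counts in GO2 and 5 counts in FGOs, or 0.180 (0.129 to 0.245), 0.0393 (0.0188 to 0.0722), 0.00413 (0.0005 to 0.0149) and 0.0208 (0.00676 to 0.0486) RPKM. The NGO library was above the others, and the interval of FGOs overlapped those of GO1 and GO2. Between NGOs and FGOs its log2 change was -2.83 (-4.76 to -1.72). No change is given from GO1 to GO2, where the pair had fewer than 20 counts.

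Pmaip1 was at 0.656 RPKM in NGOs (0.567 to 0.756, 192 counts), 0.343 RPKM in GO1 (0.283 to 0.411, 115 counts), 0.0986 RPKM in GO2 (0.0758 to 0.126, 63 counts) and 0.0537 RPKM in FGOs (0.0313 to 0.0860, 17 counts). The level was lower in the later library of both protocols, and the intervals of GO2 and FGOs overlapped. The log2 change was -3.48 (-4.37 to -2.84) from NGOs to FGOs, 11.2-fold lower, and -1.81 (-2.30 to -1.38) from GO1 to GO2, 3.5-fold lower. Both genes were below the summed level of the stroma and theca markers in the NGO library (5.88 RPKM), and in FGOs those markers were at 0.365 RPKM in all.

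**Figure D2:**
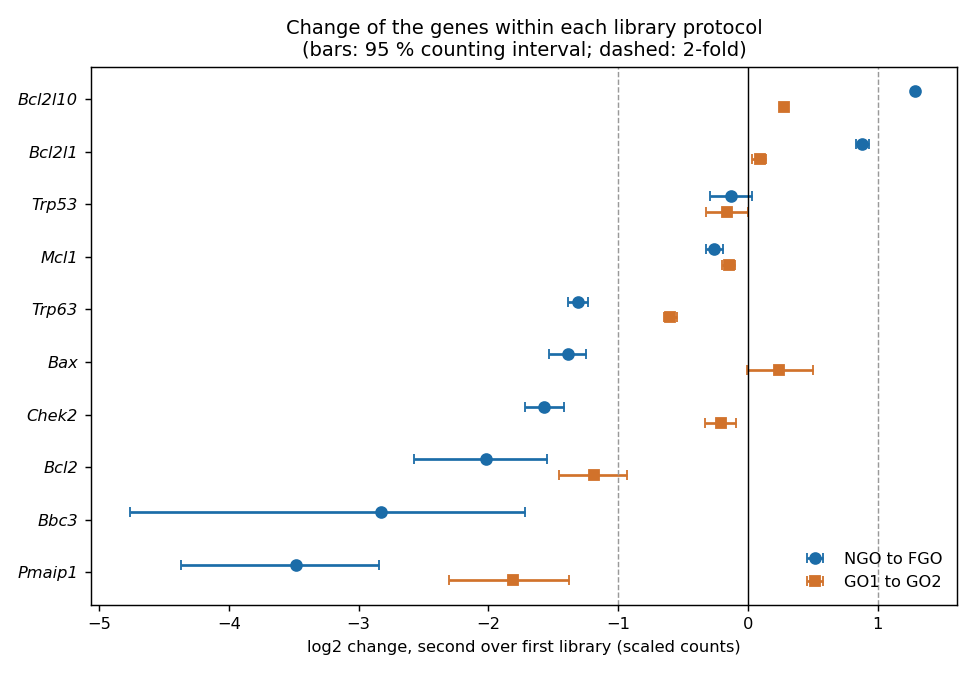
Log2 change of the scaled count of each gene from NGOs to FGOs (circles) and between GO1 and GO2 (squares), with 95 % counting intervals; dashed lines mark 2-fold, and Bbc3 from GO1 to GO2 is left out for its 12 counts. Pmaip1 (-3.48 and -1.81) and Bcl2 (-2.02 and -1.19) lie past the lower line in both pairs, Bcl2l10 (1.29) past the upper line from NGOs to FGOs.

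Bax (chr7:45461695-45466898, minus strand), the pore-forming effector, was at 15 RPKM in NGOs (14.3 to 15.8), 1.67 RPKM in GO1 (1.44 to 1.93), 2.03 RPKM in GO2 (1.84 to 2.23) and 5.54 RPKM in FGOs (5.10 to 6.01). Both dUTP libraries were above both ScriptSeq libraries, a split that follows protocol as much as stage. Within the dUTP protocol Bax fell by 1.39 on the log2 scale (-1.53 to -1.25), 2.61-fold. Between GO1 and GO2 its log2 change was 0.24 (-0.01 to 0.50), an interval that includes no change. Of the summed RPKM of the effectors, Bax made up 98.4 % (NGOs), 97.3 % (GO1), 94.4 % (GO2) and 94.9 % (FGOs). Bak1, which acts alongside BAX in many tissues, was at 0.0197 to 0.0861 RPKM, and Bok, the remaining effector, was at 0.0275 to 0.245 RPKM. Bak1 rose from 6 counts in GO1 to 50 in GO2 (log2 change 1.98, 0.87 to 3.61), and neither it nor Bok passed 2-fold from NGOs to FGOs.

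Bcl2l10 (chr9:75347758-75351632, plus strand) was the highest of the 10 genes in each library, at 337 RPKM in NGOs (334 to 341), 373 RPKM in GO1 (370 to 376), 462 RPKM in GO2 (460 to 465) and 797 RPKM in FGOs (792 to 801). By RPKM it ranked 45th among all listed genes in NGOs, 46th in GO1, 27th in GO2 and 12th in FGOs. The log2 change was 1.29 (1.28 to 1.31) from NGOs to FGOs, 2.45-fold higher, and 0.28 (0.26 to 0.29) from GO1 to GO2. Of all genes compared from NGOs to FGOs, 85.9 % had a lower log2 change.

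Bcl2l10 made up 93.6 % (NGOs), 95.3 % (GO1), 96.3 % (GO2) and 96.7 % (FGOs) of the summed RPKM of the 8 anti-apoptotic genes. Its level was 29.4 times that of Mcl1 in NGOs and 85.9 times in FGOs. Without Bcl2l10, the other anti-apoptotic genes summed to 23.0 RPKM in NGOs, 18.4 RPKM in GO1, 18.0 RPKM in GO2 and 27.4 RPKM in FGOs.

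Bcl2l1 (chr2:152780668-152831728, minus strand), which encodes BCL-XL, was at 9.66 RPKM in NGOs (9.39 to 9.93), 6.64 RPKM in GO1 (6.43 to 6.85), 7.22 RPKM in GO2 (7.06 to 7.38) and 17.1 RPKM in FGOs (16.8 to 17.4). It was highest in FGOs, but its log2 change from NGOs of 0.88 (0.83 to 0.93), 1.84-fold, stayed under the threshold. Between the growing stages the log2 change was 0.09 (0.03 to 0.14).

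Mcl1 (chr3:95658721-95663176, plus strand), the short-lived relative of BCL-2, varied least of the 10 genes, at 11.5 RPKM in NGOs (11.2 to 11.8), 10.4 RPKM in GO1 (10.1 to 10.7), 9.55 RPKM in GO2 (9.34 to 9.76) and 9.27 RPKM in FGOs (8.98 to 9.57). The highest level was 1.24 times the lowest, and the intervals of GO2 and FGOs overlapped. Its log2 change was -0.26 (-0.32 to -0.19) from NGOs to FGOs and -0.15 (-0.20 to -0.10) between GO1 and GO2. The level of Mcl1 was 1.19 times that of Bcl2l1 in NGOs, 1.56 times in GO1, 1.32 times in GO2 and 0.542 times in FGOs, so the order of both genes was reversed in fully grown oocytes.

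Bcl2 (chr1:106538178-106714274, minus strand), the founding member of the family, was at 0.209 RPKM in NGOs (0.178 to 0.243), 0.295 RPKM in GO1 (0.261 to 0.332), 0.132 RPKM in GO2 (0.115 to 0.150) and 0.0488 RPKM in FGOs (0.0352 to 0.0660). It was the lowest of the 4 anti-apoptotic genes chosen, in every library. It fell in both pairs, with a log2 change of -2.02 (-2.57 to -1.55) from NGOs to FGOs and -1.19 (-1.46 to -0.93) between GO1 and GO2. Its span overlaps D630008O14Rik on the opposite strand, which is listed at 0 in all libraries. The level of Bcl2l1 was 46.3 times that of Bcl2 in NGOs and 350 times in FGOs.

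Relative to Bax, 3 of the 4 guardians were lowest in NGOs (Bcl2l1, Bcl2l10 and Mcl1) and Bcl2 was lowest in FGOs. Bcl2l1 was at 0.642 times the level of Bax in NGOs, 3.98 times in GO1, 3.56 times in GO2 and 3.09 times in FGOs. Bcl2l10 was at 22.4 times the level of Bax in NGOs and 144 times in FGOs, with 223 and 228 times in GO1 and GO2. Mcl1 was at 0.764 times the level of Bax in NGOs, 6.21 times in GO1, 4.71 times in GO2 and 1.67 times in FGOs, and Bcl2 was at 0.0139, 0.177, 0.0651 and 0.00881 times in the same order. Bax was higher in both dUTP libraries than in both ScriptSeq libraries. Stage and protocol therefore cannot be told apart where ratios of NGOs or FGOs are set beside those of GO1 or GO2. These are ratios of RNA levels per length and say nothing of the proteins.

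**Figure D3:**
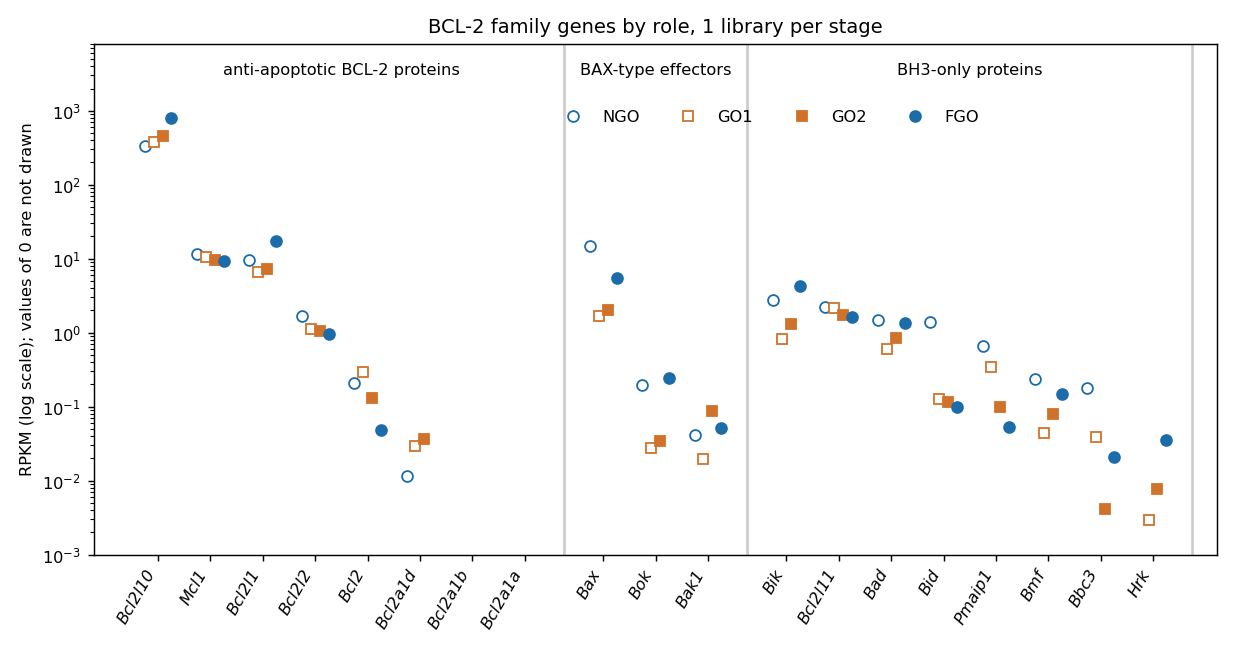
RPKM (log axis) of the BCL-2 family genes, grouped by role and ordered by mean level, in the 4 libraries; circles are dUTP (open NGO, filled FGO) and squares ScriptSeq (open GO1, filled GO2) libraries, and values of 0 are not drawn. Bcl2l10 lies at 337 to 797 RPKM, while the next genes, Mcl1 and Bcl2l1, lie at 6.64 to 17.1 RPKM.

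Of the remaining anti-apoptotic genes, Bcl2l2 (BCL-W) was at 0.970 to 1.66 RPKM, with a log2 change of -0.72 from NGOs to FGOs. Bcl2a1a and Bcl2a1b were listed at 0 in all libraries and Bcl2a1d had at most 7 counts, but these are near-identical copies and how their reads were assigned is not given. Of the 5 anti-apoptotic genes with enough counts, 1 rose and 1 fell from NGOs to FGOs, both named above. Over all genes compared, 17.7 % rose and 16.8 % fell.

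Of the 8 BH3-only genes, Bbc3, Pmaip1 and Bid fell and Hrk rose from NGOs to FGOs, a median log2 change of -0.50 over the list. Among all genes compared, 16.8 % fell and 17.7 % rose. Bid, which couples death receptors to mitochondria, was at 1.38 RPKM in NGOs and 0.0989 to 0.127 RPKM in the other libraries, and it changed by -3.72 (-4.24 to -3.30) on the log2 scale between NGOs and FGOs. Hrk (Harakiri) had 0 counts in NGOs, 2 counts in GO1, 10 counts in GO2 and 23 counts in FGOs. With 3 counts set for the NGO library, Hrk was 7.35-fold higher in FGOs than in NGOs. The counting interval of its log2 change from NGOs to FGOs began at 2.46 and had no upper limit. The highest of the list on average was Bik, at 2.77 RPKM in NGOs, 0.811 RPKM in GO1, 1.29 RPKM in GO2 and 4.25 RPKM in FGOs. Bcl2l11 (BIM) was at 1.62 to 2.20 RPKM, Bad at 0.601 to 1.5 RPKM and Bmf at 0.0435 to 0.238 RPKM. Their log2 changes from NGOs to FGOs were -0.39, -0.09 and -0.61, and that of Bik was 0.67, none of them past 2-fold. Bik made up 56.0 % of the summed RPKM of the BH3-only genes in FGOs, and Bbc3 and Pmaip1 made up 0.274 % and 0.708 %. From GO1 to GO2, 1 of the 6 BH3-only genes with enough counts fell (Pmaip1) and none rose. Among all genes compared there, 2.85 % fell and 6.87 % rose.

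Upstream, of 21 kinases and mediators of the DNA damage response compared, 2 fell from NGOs to FGOs (Chek2 and Atm) and none rose, and no gene of the list passed 2-fold between GO1 and GO2. Over all genes compared, 16.8 % fell and 17.7 % rose from NGOs to FGOs, while 2.85 % fell and 6.87 % rose between GO1 and GO2. Whether the list differs from all genes was not tested in either pair. The median log2 change of the list was -0.05 between NGOs and FGOs and -0.11 between GO1 and GO2. Atm, the kinase upstream of CHEK2, was singled out after its values were seen. It was at 4.96 RPKM in NGOs, 2.76 RPKM in GO1, 2.18 RPKM in GO2 and 1.97 RPKM in FGOs (log2 change from NGOs to FGOs -1.28, -1.35 to -1.21). Chek1, which acts with ATR at stalled replication forks, had the highest mean RPKM of the list over the 4 libraries, at 38.7 RPKM in NGOs, 56.3 RPKM in GO1, 51.3 RPKM in GO2 and 59.9 RPKM in FGOs. Between NGOs and FGOs its log2 change was 0.68 (0.66 to 0.71). Rad17, the loader of the checkpoint clamp, had the highest log2 change of the list, 0.72 (0.65 to 0.78).

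Among 14 genes of the p53 family and its regulators, 2 rose (Trp73 and Mdm4) and 2 fell (Trp63 and Wwp1) from NGOs to FGOs. Of all genes compared in that pair, 17.7 % rose and 16.8 % fell. None of the 14 passed 2-fold from GO1 to GO2, where 6.87 % of all genes compared rose and 2.85 % fell. Trp73, the other p53 relative, rose from 0.333 RPKM in NGOs to 1.21 RPKM in FGOs (log2 change 1.90, 1.68 to 2.14), with 0.676 and 0.674 RPKM in GO1 and GO2. Mdm4, an inhibitor of p53, was at 103 RPKM in NGOs, 275 RPKM in GO1, 293 RPKM in GO2 and 259 RPKM in FGOs, the highest of the list (log2 change from NGOs to FGOs 1.39, 1.37 to 1.40). Wwp1, a ubiquitin ligase, changed by -1.05 and was named after its values were seen. Mdm2, the ligase that degrades p53 and a p53 target itself, was at 17.5 RPKM in NGOs and 17 RPKM in FGOs and was likewise singled out afterwards.

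Of 23 p53 target genes compared, 10 fell and 1 rose from NGOs to FGOs, with a median log2 change of -0.48. Bbc3, Pmaip1 and Bax are 3 of the 10 that fell, and without them 7 of 20 fell and 1 rose, beside 16.8 % and 17.7 % of all genes. Of these 7, Cdkn1a (38 counts in NGOs, 3 in FGOs) and Eda2r (29 and 6) had few counts. Both were named after their values were seen. Tnfrsf10b, a death receptor, changed most, from 0.428 RPKM in NGOs to 0.0211 RPKM in FGOs (log2 change -4.13, -5.53 to -3.27). Perp, a membrane protein gene activated by p53 and TP63 that was named after its values were seen, was at 5.16 RPKM in NGOs, 2.29 RPKM in GO1, 1.26 RPKM in GO2 and 0.835 RPKM in FGOs. The highest mean RPKM of the list was that of Rrm2b, a ribonucleotide reductase subunit, at 17.3 RPKM in NGOs and 28.1 RPKM in FGOs (log2 change 0.75). The target that rose, Fas, had 3 counts in NGOs and 39 in FGOs (log2 change 3.27, 1.99 to 5.98). Of 21 targets compared from GO1 to GO2, 2 fell (Pmaip1 and Cdkn1a, the latter with 17 and 13 counts) and 1, Fas, rose, with 9 and 41 counts. Over all genes compared in that pair, 2.85 % fell and 6.87 % rose. The falls from NGOs again stand beside the stroma and theca markers, of which 5 of 7 compared fell, with a median log2 change of -5.78. Of the 13 oocyte markers, 5 fell as well, with a median of -0.75. The part of the stroma and theca cells in the falls was not tested.

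**Figure D4:**
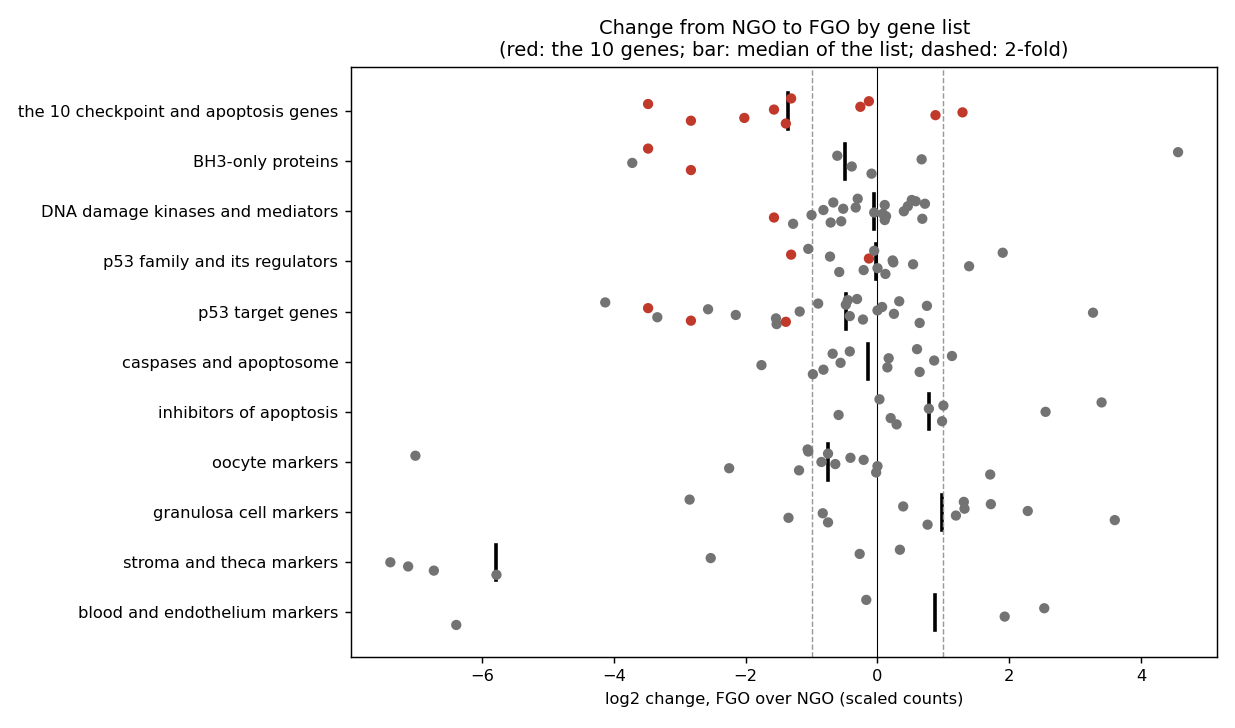
Log2 change from NGOs to FGOs of each gene with 20 or more counts in the pair, by list, with the 10 checkpoint and apoptosis genes in red, the median of each list as a bar and 2-fold as dashed lines; genes can be in more than 1 list. The median is -1.35 for the 10 genes, -0.05 for the DNA damage kinases and mediators, and -5.78 for the stroma and theca markers.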

How the data were processed

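Oocyte libraries of 4 stages were analysed, 1 per stage. For 25587 genes the authors deposited linear RPKM values, made from reads trimmed with Trim Galore 0.2.8 and mapped to GRCm38 with TopHat2 2.0.9, per the submitters' processing notes. The program, annotation and strand setting behind them are not given in the sources used here. Counting intervals had been planned for counts, which were recovered as follows. The library totals behind the RPKM were fitted on 676 genes with a single exon in GENCODE M21, of whose values at least 99.57 % came out whole (within 0.001 of a whole number plus 1.2e-07 of the count), and for other genes the exon length was searched at which every library gave whole counts. For Chek2, Bbc3, Pmaip1, Bax and Mcl1 it was the smallest such length, and any multiple of it would exceed the GENCODE exons. Fitted totals were 110595207 (NGO), 126796741 (GO1), 241385708 (GO2) and 119629251 (FGO). The recovered counts outnumber the mapped reads the study gives, so they are not independent reads.

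Changes are log2 ratios of counts with a prior count of 1, scaled by a trimmed mean (30 % of ratios and 5 % of levels), with at least 20 counts in the pair. Levels have exact Poisson intervals and changes have intervals from the exact binomial share (95 %). Python 3.11.15, numpy 2.4.6, pandas 2.3.3, scipy 1.17.1 and matplotlib 3.10.9 were used, and scripts were tested on simulated data. The genes and lists were chosen with earlier results of these data known. Named by rule were the 10 genes, every further BCL-2 family gene, and per list the gene of highest mean RPKM and those of largest rise and fall from NGOs to FGOs with 100 or more counts in either library. Of the listed genes, Rad9a, Pidd1, Adgre1, Hbb-bs and Hbb-bt did not match a symbol in the table. Alternatives were other scalings, minimums, prior counts, thresholds and units.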

Additional observations from a re-analysis of the deposited data

How the results depend on the processing

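The number of the 10 genes that changed at least 2-fold from NGOs to FGOs was 7 with RPKM as deposited, with scaling by the median of ratios or the upper quartile, with a prior count of 5, without a count minimum and on log2(RPKM + 0.1), and the same 7 genes passed each time. On log2(RPKM + 0.1), however, the low genes changed less, Bbc3 by -1.21 in place of -2.83, Bcl2 by -1.05 in place of -2.02 and Pmaip1 by -2.30 in place of -3.48, so that of these only Pmaip1 stayed past 4-fold. It was 6 with a minimum of 100 counts, where Bbc3 dropped out, and 3 at 4-fold (Bbc3, Pmaip1 and Bcl2). From GO1 to GO2, the 2 genes became 0 at 4-fold, 1 (Pmaip1) on log2(RPKM + 0.1), where the added value shrinks the change of low genes, and 3 without a count minimum, where Bbc3 was added. The other scalings moved the median of all genes compared by at most 0.05 on the log2 scale, and none of the 10 genes changed direction under any alternative tried. Bcl2l10 made up 81.5 % (NGOs), 86.1 % (GO1), 88.7 % (GO2) and 89.4 % (FGOs) of anti-apoptotic counts that were not divided by exon length, a lower share because its exons are short. With counts divided by 4 before the interval, an alternative chosen after the data were seen, the interval left out no change for 9 of the 10 genes from NGOs to FGOs, the number found without the division, and for 5 in place of 7 from GO1 to GO2. With 1 library per stage no library could be left out, and spread between oocyte pools, litters or preparations is not covered by any interval. Depth limits Bbc3 in each library and Pmaip1 and Bcl2 in FGOs.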

Other observations

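Downstream of BAX, of 12 caspases and apoptosome genes compared, 1 rose (Cycs) and 1 fell (Casp6) from NGOs to FGOs, beside 17.7 % and 16.8 % of all genes. Their median log2 change was -0.14. None passed 2-fold from GO1 to GO2, where 6.87 % of all genes compared rose and 2.85 % fell. Cycs, which encodes cytochrome c, was at 0.385 RPKM in NGOs, 1.55 RPKM in GO1, 1.73 RPKM in GO2 and 0.813 RPKM in FGOs (log2 change from NGOs to FGOs 1.13, 0.84 to 1.42). Casp6, an executioner caspase, was at 2.60 RPKM in NGOs and 0.738 RPKM in FGOs (-1.76, -2.04 to -1.50). The highest mean RPKM of the list over the 4 libraries was that of Aifm1, a mitochondrial flavoprotein, which went from 9.43 to 4.59 RPKM (-0.98).

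Of the 9 inhibitors of apoptosis, 3 rose from NGOs to FGOs and none fell (median log2 change 0.78), beside 17.7 % and 16.8 % of all genes. None passed 2-fold from GO1 to GO2, where 6.87 % of all genes compared rose and 2.85 % fell. From NGOs to FGOs, 6 of the 12 granulosa cell markers rose and 2 fell, Foxl2 and Wt1 (median 0.98), and their part was not tested. The 3 inhibitors that rose are Naip1, Naip5 and Naip6, of which the last 2 were named after their values were seen. Naip5 had 54 counts in NGOs and 114 in FGOs, 2.01-fold higher after scaling, and Naip6 had 6 and 76. The median of the 9 inhibitors was the value of Naip2, with 33 and 60 counts. Naip1 rose from 0.441 to 2.5 RPKM (log2 change 2.55, 2.37 to 2.75). The NAIP genes are related copies, and how reads that fit more than 1 of them were assigned is not given. Birc5 (survivin), which also serves in cell division, had the highest mean RPKM of the list, at 39.3 RPKM in NGOs, 74.4 RPKM in GO1, 59.4 RPKM in GO2 and 43.6 RPKM in FGOs. Birc6 had the lowest log2 change, -0.59, and Xiap (0.03), Birc2 (0.29), Birc5 (0.2) and Birc3 (0.98) also stayed under 2-fold from NGOs to FGOs. Xiap, Birc2, Birc3 and Naip2 were named after their values were seen.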
